A study of Mus musculus with 6 samples.

Results

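Nuclear receptors are transcription factors that bind DNA through a pair of zinc fingers and, in most cases, a small ligand such as a steroid, a bile acid, a fatty acid, a retinoid or thyroid hormone. Many bind as heterodimers with a retinoid X receptor (RXR), some bind as homodimers or monomers, and a few lack a DNA-binding domain and repress other receptors. In the liver they set the expression of genes for fatty acid oxidation, bile acid and cholesterol handling, drug metabolism and the circadian clock. The members followed here are the mouse genes of this superfamily other than the HNF4 genes and the glucocorticoid receptor gene, found by their symbols in the platform annotation. Of 43 genes listed, 41 had at least 1 probe set that the annotation gives to that gene alone. These 41 genes have 102 of the 45037 probe sets tested. Nr1h2 and Nr2e3 had no such probe set and were not analysed here. In 16 members the gene has 1 probe set and in 25 it has several, up to 9 for Rora.

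The samples were fetal mouse livers at E18.5, with 3 null and 3 control livers on 1 array each. Null livers carried loxP-flanked Hnf4 on both alleles and the AlfpCre transgene, and control livers carried 1 flanked Hnf4 allele and the same transgene, so all 6 livers had the Cre transgene. AlfpCre is driven by regulatory elements of the albumin and alpha-fetoprotein genes and acts in the hepatocyte lineage, while a fetal liver also holds blood-forming, endothelial, mesenchymal and other cells. Arrays are named as in their titles, and triplets of values run in the order Null_61, Null_1191, Null_1195 and Control_8, Control_1192, Control_1193. The labels do not say whether litters were shared, so a p value here reflects only how much these arrays vary. SE is the standard error of a log2 change.

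Values are the deposited probe-set intensities on a linear scale. Log2 changes are null minus control after a pseudocount of 32 was added, which understates the change of dim probe sets, and no fold is given. Adjusted p values come from limma with Benjamini-Hochberg adjustment over the 45037 probe sets, and a probe set is called lower or higher in the null livers at an adjusted p under 0.05. A gene is represented in counts of genes by its brightest probe set, chosen by its mean log2 value over all arrays. By that rule 7.85% of all 18193 genes were called lower and 1.56% higher. Those are the shares to set beside each count of marker or list genes below. A probe set is called dim here where both group means lie below 99.5, the highest of the 6 array medians.

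The arrays had medians of 91.8 to 99.5. Hnf4a, the gene the flanked alleles belong to, had 4 probe sets, of which 1421983_s_at read 793, 527 and 834 in the null livers, against 1201, 1127 and 1135 in the control livers (log2 change -0.69, SE 0.17, adjusted p = 0.0434). Of the other probe sets of Hnf4a, 1450447_at was also called (log2 change -0.55, adjusted p = 0.0488), whereas 1427000_at (log2 change -0.54, adjusted p = 0.0785) and 1427001_s_at (log2 change -0.48, adjusted p = 0.194) were not. The call of 1421983_s_at was kept in 7 of 16 alternative settings and in 2 of the 6 fits with 1 array left out, and that of 1450447_at in 6 of 16 and in 1 of 6. Both were lost with quantile normalization and with embryo sex as a term. The sources used here do not place these probe sets on the gene, so they check the labels only in part. The arrays with low title numbers (Null_61 and Control_8) are called the earlier run here, and those with high numbers (the other 4 arrays) the later run. These names stand only for the numbers. The sources used here do not say what the numbers mark or give an order in time. Null_1191, Null_1195 and Control_8 came from female embryos by their Xist and Y-linked signals and the other 3 from male embryos.

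Several markers of cell types moved with genotype. Of 6 hepatocyte markers measured 4 were lower in the null livers (Apoa1, Apoa2, Fga and Ttr), with summed intensities of 37908 to 41794 in the null livers and 63901 to 64804 in the control livers, while Alb (log2 change 0.02, adjusted p = 0.928) and Afp (log2 change -0.06, adjusted p = 0.636) were not called. Of 8 macrophage markers 3 were higher (Timd4, Clec4f and Adgre1), with sums of 4469 to 7316 in the null livers and 2946 to 3505 in the control livers. Of 8 endothelial markers 3 were lower (Stab2, Kdr and Tek), with sums of 1385 to 1630 in the null livers and 1941 to 2218 in the control livers. Of 5 megakaryocyte markers 3 were lower (Pf4, Gp1bb and Itga2b), with sums of 3534 to 4043 in the null livers and 4996 to 7010 in the control livers. No marker was called among 6 erythroid, 9 stellate and mesenchymal, 5 biliary and 6 neutrophil markers, whose sums ranged from 15293 to 16616, 5241 to 7751, 743 to 861 and 13897 to 16844 in the null livers, against 14110 to 14803, 4353 to 5344, 729 to 821 and 15880 to 17691 in the control livers. None of these markers was at 0 in all 6 arrays. The part of cell composition in the results below was not tested, and in whole livers fewer cells of a type cannot be told apart from less RNA per cell.

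Among the receptors, a small number of genes had lower signal in the null livers, and most of the family was not called. By the brightest probe set, Nr1i2, Nr1h4 and Nr0b2 were lower, which is 3 of 41 members (7.32%), beside 7.85% of all 18193 genes. Nr4a3 alone was higher, which is 2.44% of members, beside 1.56% of all genes. The other 37 were not called, although 8 of the 41 had an unadjusted p under 0.05. Counted by probe sets, 11 of 102 were lower (10.8%) and 1 was higher (0.98%), beside 6.21% and 1.42% of all probe sets with 1 gene symbol. Counted as genes with any probe set called, 7 members were lower (17.1%), beside 9.73% of all genes, and 1 was higher (2.44%), beside 2.53%. This added Ppara, Rora, Nr2f6 and Esrrg. Members more often have several probe sets (25 of 41) than all genes do (9010 of 18193), so a count by any probe set favours them. Among genes with several, the brightest was not called and another was called lower in 4 of 25 members. The same held in 340 of all 9010 such genes (3.77%). That comparison does not match how many probe sets each gene has. The groups did not overlap in the brightest probe set of 12 members (6 with all null livers below and 6 with all above), or 29.3%, beside 31.0% of all genes. Without Null_61 the brightest probe sets of 6 members were lower and of 2 higher, and without any 1 of the other arrays 0 were higher. The shares by brightest probe set are thus close to those of all genes.

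The median log2 change of the members was -0.08, against 0.01 for all genes. Of the 33 members with no probe set called, 29 had a log2 change under 0.3 in size in the brightest probe set, and the 33 ran from -0.91 in Rxra to 0.60 in Nr0b1. In 16 of the 41 members the brightest probe set was dim, which limits what could be seen for them.

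**Figure D1:**
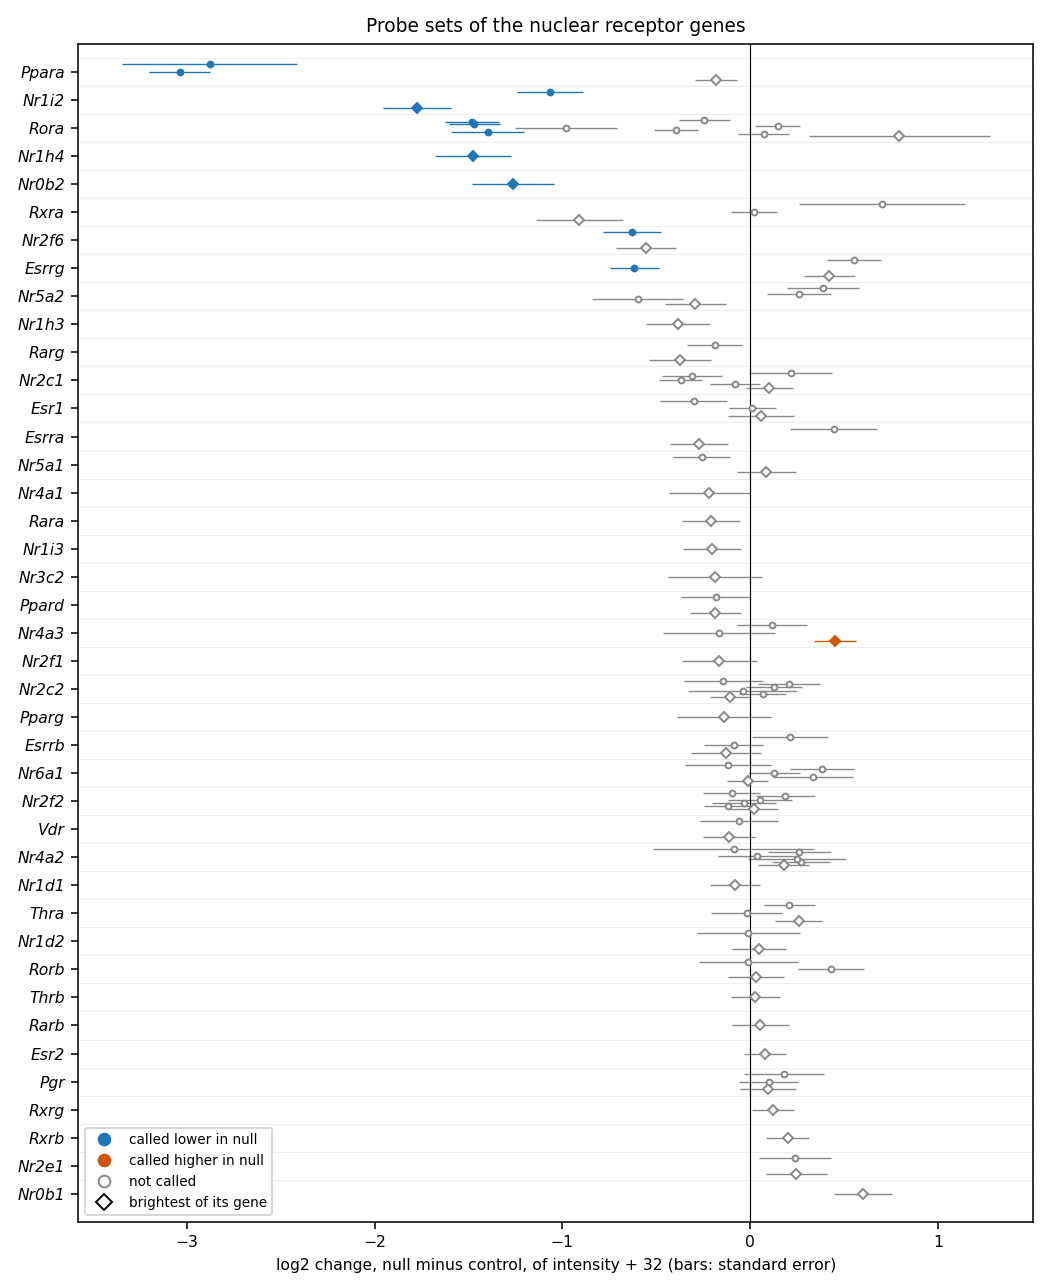
Log2 change (null minus control) of all 102 receptor probe sets, 1 row per gene, with bars for the standard error. Filled blue marks are called lower, filled orange marks higher and open grey marks not called, and diamonds are the brightest probe set of each gene; Ppara, Nr1i2, Rora, Nr1h4 and Nr0b2 hold the changes below -1, and Ppara and Rora have probe sets on both sides of the threshold.

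Of the 7 members with any probe set called lower, 4 that regulate liver metabolism were picked after their values were seen. Their promoter windows are given here. They are RefSeq windows on build GRCm38.p6, read 5′ to 3′ on the gene's strand from 250 bases before to 50 bases after the annotated start, and capitals mark the motifs found. The motifs searched on both strands were the HNF4 core CAAAGTCCA, the hexamer AGGTCA bound by many nuclear receptors, a direct repeat of that hexamer with 1 to 5 bases between the copies, and TCAAGG, the core of the extended site bound by NR5A receptors (this last one was chosen after the sequences were seen). A direct repeat contains the hexamer, so those 2 searches overlap.
Nr1h4 (chr10:89506609-89506908, minus strand): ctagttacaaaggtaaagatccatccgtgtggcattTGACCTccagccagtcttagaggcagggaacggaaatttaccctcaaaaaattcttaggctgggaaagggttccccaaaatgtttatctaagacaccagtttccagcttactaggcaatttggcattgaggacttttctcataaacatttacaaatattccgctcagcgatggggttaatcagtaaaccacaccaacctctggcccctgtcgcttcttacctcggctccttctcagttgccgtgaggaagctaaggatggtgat
Nr0b2 (chr4:133553126-133553425, plus strand): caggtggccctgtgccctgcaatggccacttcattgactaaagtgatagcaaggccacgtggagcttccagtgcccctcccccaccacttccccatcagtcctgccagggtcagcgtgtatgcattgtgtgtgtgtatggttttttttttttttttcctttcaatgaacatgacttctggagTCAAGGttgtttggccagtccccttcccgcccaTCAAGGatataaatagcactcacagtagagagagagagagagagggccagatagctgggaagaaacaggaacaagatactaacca
Nr1i2 (chr16:38294775-38295074, minus strand): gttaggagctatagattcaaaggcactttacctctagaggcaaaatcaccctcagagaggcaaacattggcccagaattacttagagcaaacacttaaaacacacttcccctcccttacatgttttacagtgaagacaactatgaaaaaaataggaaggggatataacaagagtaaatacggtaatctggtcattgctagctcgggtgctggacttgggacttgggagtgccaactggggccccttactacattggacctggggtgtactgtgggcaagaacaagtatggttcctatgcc
Ppara (chr15:85735526-85735825, plus strand): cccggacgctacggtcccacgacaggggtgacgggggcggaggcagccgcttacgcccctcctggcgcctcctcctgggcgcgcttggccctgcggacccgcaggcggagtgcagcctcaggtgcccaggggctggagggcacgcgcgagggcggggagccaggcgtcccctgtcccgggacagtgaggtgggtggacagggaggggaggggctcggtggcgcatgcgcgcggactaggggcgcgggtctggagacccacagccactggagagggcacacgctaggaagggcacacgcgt
The window of Nr1h4 holds 1 AGGTCA hexamer, read on the opposite strand (TGACCT as printed), with its first base at position -214 from the start. That of Nr0b2 holds 2 copies of TCAAGG, at positions -68 and -35. None of these motifs is in the Nr1i2, Ppara, Rora, Nr2f6 or Nr4a3 windows, and 2 of the 4 Esrrg windows hold 1 TCAAGG each. Over the family, 59 windows of 39 members were in the RefSeq table. The HNF4 core was in 0 of the 59 windows and in 0.475% of all 32851 windows. The hexamer was in 12 member windows of 11 genes and in 16.3% of all windows, and TCAAGG in 8 member windows of 7 genes and in 14.4% of all. The direct repeat was in 0 member windows and in 0.0791% of all. These are matches of letters, and other stretches of the genes were not searched.

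Ppara encodes PPAR alpha, the fatty acid receptor that drives fatty acid oxidation and ketone formation in fasting and around birth. Probe set 1439675_at of Ppara read 103, 59.3 and 98.2 in the null livers, against 979, 933 and 877 in the control livers (log2 change -3.04, SE 0.16, adjusted p = 8.1e-06). Probe set 1449051_at read 44.6, 72.2 and 132 in the null livers, against 324, 1219.9 and 1139 in the control livers (log2 change -2.88, SE 0.47, adjusted p = 0.00631). In both, all null livers lay below all control livers, and in the second Control_8 stood well below the other controls. Both stayed under the threshold in each of the 16 alternative settings run on them. The brightest probe set of Ppara, 1457721_at, showed a much smaller difference, at 553, 557 and 639 in the null livers, against 634, 676 and 682 in the control livers, with the groups overlapping at Null_1195 and Control_8 (log2 change -0.18, SE 0.11, adjusted p = 0.392). With the mean of its 3 probe sets Ppara was called, with a log2 change of -2.03 and an adjusted p of 1.8e-04. The sources used here do not say which transcripts the 3 probe sets read.

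Of 18 PPAR alpha targets measured among 22 listed, 13 were lower and 0 higher, with a median log2 change of -1.21. Acaa1b, a peroxisomal thiolase, read 4.97, 24.5 and 18.6 in the null livers, against 1156, 1275 and 884 in the control livers (log2 change -4.57, SE 0.19, adjusted p = 1.9e-06). Its log2 change ran from -6.25 to -3.37 over 17 alternatives. Fabp1, the liver fatty acid-binding protein (log2 change -2.67, adjusted p = 3.7e-06), and Angptl4, a secreted inhibitor of lipoprotein lipase (log2 change -2.05, adjusted p = 1.5e-05), were lower. Cpt1a, which admits fatty acids to mitochondria, also fell (log2 change -1.44, adjusted p = 0.00161). The other 5 were not called, among them Fgf21, a fasting hormone (log2 change 0.03, adjusted p = 0.945), and Acot1, an acyl-CoA thioesterase that had all null livers above all controls (log2 change 0.60, adjusted p = 0.0759). Of 6 hepatocyte markers measured, 4 were also lower, while Alb and Afp were not called, as given above. The delta and gamma members of the PPAR group, which act in many tissues and in fat cells, were not called: Ppard read 183, 241 and 238 in the null livers, against 252, 237 and 274 in the control livers in its brightest probe set (log2 change -0.19, adjusted p = 0.475). The single probe set of Pparg was dim (log2 change -0.14, adjusted p = 0.794).

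Rora encodes ROR alpha, a monomeric receptor that activates clock and lipid genes through response elements it shares with the REV-ERB repressors. Of its 9 probe sets 3 were called, all lower. Probe set 1436325_at of Rora read 44.9, 63.7 and 54.9 in the null livers, against 216, 180.1 and 226 in the control livers (log2 change -1.47, SE 0.14, adjusted p = 2.4e-04). Probe set 1420583_a_at read 40.4, 34.1 and 28.5 in the null livers, against 184, 132 and 146 in the control livers (log2 change -1.48, SE 0.14, adjusted p = 3.1e-04). Probe set 1424034_at read 107, 57.9 and 86.6 in the null livers, against 342, 233 and 241 in the control livers (log2 change -1.40, SE 0.20, adjusted p = 0.00277). In each of these the groups stood apart, and the calls were kept in each alternative setting run. In 3 more Rora probe sets, 1436326_at (log2 change -0.98, adjusted p = 0.0726), 1455165_at (log2 change -0.39, adjusted p = 0.0876) and the dim 1424035_at (log2 change -0.24, adjusted p = 0.354), all null livers lay below all controls without a call.

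The brightest Rora probe set, 1441085_at, had the opposite sign, at 77.4, 321 and 409 in the null livers, against 71, 117 and 180.4 in the control livers (log2 change 0.79, SE 0.48, adjusted p = 0.389). Its groups overlapped, and both arrays of the earlier run were the lowest of their group. It was called higher with the number run as a block (adjusted p = 0.0435), in the later run alone (log2 change 1.15, adjusted p = 0.0078) and without Null_61 (log2 change 1.41, adjusted p = 0.0136). The mean over all 9 Rora probe sets was called lower, with a log2 change of -0.55 and an adjusted p of 0.0143. The remaining Rora probe sets, 1458129_at (log2 change 0.07, adjusted p = 0.802) and 1458145_at (log2 change 0.15, adjusted p = 0.524, all null livers above all controls), were not called. The size of the difference thus depends on the probe set read, as it did for Ppara, and in Rora so does the sign.

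**Figure D2:**
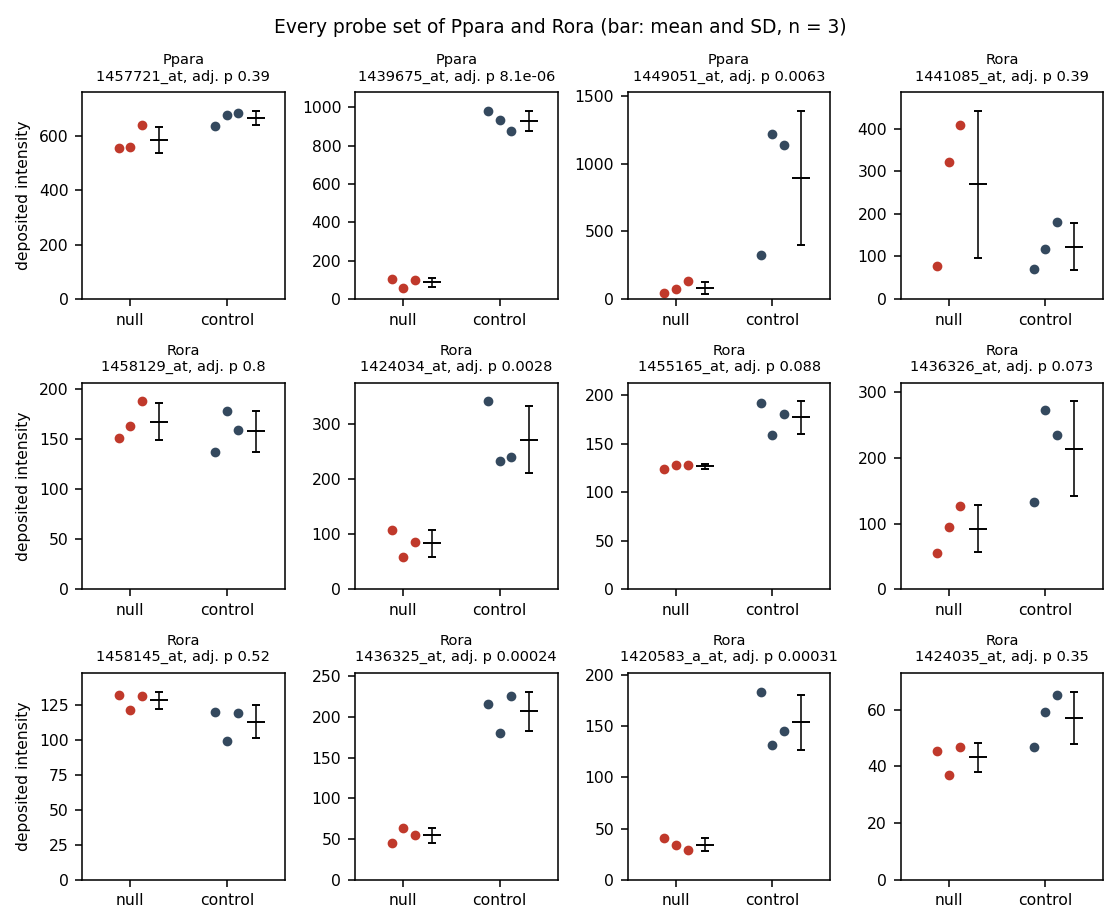
Deposited intensity in every probe set of Ppara (3 panels) and Rora (9 panels), each array as a point, with red null livers on the left of each panel and dark blue control livers on the right and bars for the mean and SD (n = 3). Within a group the points run in the order of the array names given above. Ppara 1439675_at separates at about 59.3 to 102.7 in the null livers against 877 to 979 in the control livers, while 1457721_at does not separate, and Rora has separated and overlapping panels.

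The REV-ERB genes Nr1d1 and Nr1d2, repressors at the same elements, were dim and not called, with log2 change -0.08, adjusted p = 0.772 for Nr1d1 and log2 change 0.05, adjusted p = 0.882 for the brightest probe set of Nr1d2. Rorb, the neural member of the ROR group, was also dim: its 1455799_at had an unadjusted p of 0.0381 and a log2 change of 0.43, adjusted p = 0.204. Of 15 clock genes with ROR elements or their partners 4 were lower and 0 higher, with a median log2 change of -0.27. Ciart, a repressor of the clock, had the smallest adjusted p (log2 change -2.72, SE 0.11, adjusted p = 1.5e-06). The others were Nfil3, a repressor of D-box genes (log2 change -1.14, adjusted p = 0.0158), the cryptochrome Cry2 (log2 change -0.82, adjusted p = 0.0171) and Arntl, which encodes the activator BMAL1 (log2 change -0.59, adjusted p = 0.022). The count was 1 without Control_8, Control_1192 or Null_1191 and 2 without Control_1193. Clock (log2 change -0.27, adjusted p = 0.283) and Per2 (log2 change -0.19, adjusted p = 0.523) were not called. The sources used here do not give the time of day at which livers were taken.

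Nr1i2 encodes the pregnane X receptor (PXR), which senses drugs and steroids and induces their metabolism as a heterodimer with RXR. Its 1451807_at read 40.2, 58.1 and 46.7 in the null livers, against 196, 222 and 322 in the control livers (log2 change -1.77, SE 0.18, adjusted p = 4.0e-04). Its other probe set, 1425723_at, read 61.2, 40.6 and 30.7 in the null livers, against 129, 105 and 146 in the control livers (log2 change -1.07, SE 0.17, adjusted p = 0.00654). Both probe sets of Nr1i2 separated the groups, and both calls were kept in each alternative run. Nr1i3, the constitutive androstane receptor (CAR) that shares many targets with PXR, read 91.7, 91.8 and 92 in the null livers, against 86.4, 144 and 107 in the control livers (log2 change -0.20, SE 0.16, adjusted p = 0.499). The null livers differed little among themselves in Nr1i3 and lay within the control range. Of 16 PXR and CAR targets measured among 20 listed, 8 were lower and 0 higher, with a median log2 change of -0.92. The cytochromes P450 Cyp3a11 (log2 change -5.07, adjusted p = 1.6e-06) and Cyp3a25 (log2 change -4.30, adjusted p = 8.8e-06) and the sulfotransferase Sult1d1 (log2 change -3.24, adjusted p = 3.4e-06) had the smallest adjusted p values. The other 8 were not called, among them Cyp2b10 (log2 change -0.48, adjusted p = 0.335) and Alas1 (log2 change -0.03, adjusted p = 0.887). All null livers lay above all controls in 2 of them, Cyp2b13 (log2 change 0.79, adjusted p = 0.0729) and the exporter gene Abcc3 (log2 change 0.43, adjusted p = 0.176). Members of the Cyp3a, Cyp2b and Cyp2c families are close in sequence, so probe sets may read more than 1 of them. Over 17 alternatives the log2 change ran from -7.73 to -2.88 for Cyp3a25 and from -4.91 to -2.11 for Sult1d1. The sizes of these changes thus depend on the setting.

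Nr1h4 encodes the bile acid receptor FXR, which lowers bile acid synthesis and raises bile acid export. Its single probe set, 1419105_at, read 71.7, 131 and 118 in the null livers, against 274, 393 and 388 in the control livers (log2 change -1.48, SE 0.20, adjusted p = 0.00249). Null_61 and Control_8 were the lowest of their groups in Nr1h4, and the groups did not overlap. Nr0b2 encodes SHP, a receptor without a DNA-binding domain that FXR induces and that represses other receptors, among them LRH-1. Probe set 1449854_at of Nr0b2 read 54.1, 66.8 and 74.4 in the null livers, against 128, 255 and 239 in the control livers (log2 change -1.26, SE 0.22, adjusted p = 0.00896). All null livers were below all controls for Nr0b2, and Control_8 was again the lowest control. The Nr0b2 call was lost without Control_1192 (adjusted p = 0.051) and kept in the other 16 alternatives. The Nr1h4 call was kept in all 17.

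Nr5a2 encodes LRH-1, a monomeric receptor of bile acid and cholesterol genes, and its 4 probe sets had mixed signs and no call. Its brightest, 1456521_at, read 287, 178 and 253 in the null livers, against 313, 296 and 278 in the control livers (log2 change -0.29, SE 0.16, adjusted p = 0.353). Probe set 1420410_at of Nr5a2 had an unadjusted p of 0.0368 and read 124, 131 and 217 in the null livers, against 179.7, 343 and 245 in the control livers (log2 change -0.60, SE 0.24, adjusted p = 0.2). The groups of that probe set overlapped at Null_1195 and Control_8. The other 2 probe sets of Nr5a2 were 1449706_s_at (log2 change 0.26, adjusted p = 0.423) and 1449707_at (log2 change 0.39, adjusted p = 0.294). Of 16 targets of FXR and LRH-1 and bile acid genes 11 were lower and 0 higher, with a median log2 change of -1.20. They included Slc10a1, which takes up bile acids (log2 change -4.72, adjusted p = 2.4e-07), Abcb11, which exports them (log2 change -5.54, adjusted p = 4.2e-07, with all null arrays listed below 0, so that the pseudocount sets its size), and Apoc2, a cofactor of lipoprotein lipase (log2 change -3.71, adjusted p = 1.0e-06). Cyp7a1, the rate-limiting enzyme of bile acid synthesis, which SHP represses, was also lower (log2 change -1.01, adjusted p = 0.0453). Baat (log2 change 0.06, adjusted p = 0.841), Slc51a (log2 change 0.09, adjusted p = 0.823) and Slc51b (log2 change 0.40, adjusted p = 0.173) were not called. Neither was Cyp7b1, an enzyme of the alternative synthesis pathway (log2 change 0.52, adjusted p = 0.117), and in Slc51b and Cyp7b1 all null livers lay above all controls.

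**Figure D3:**
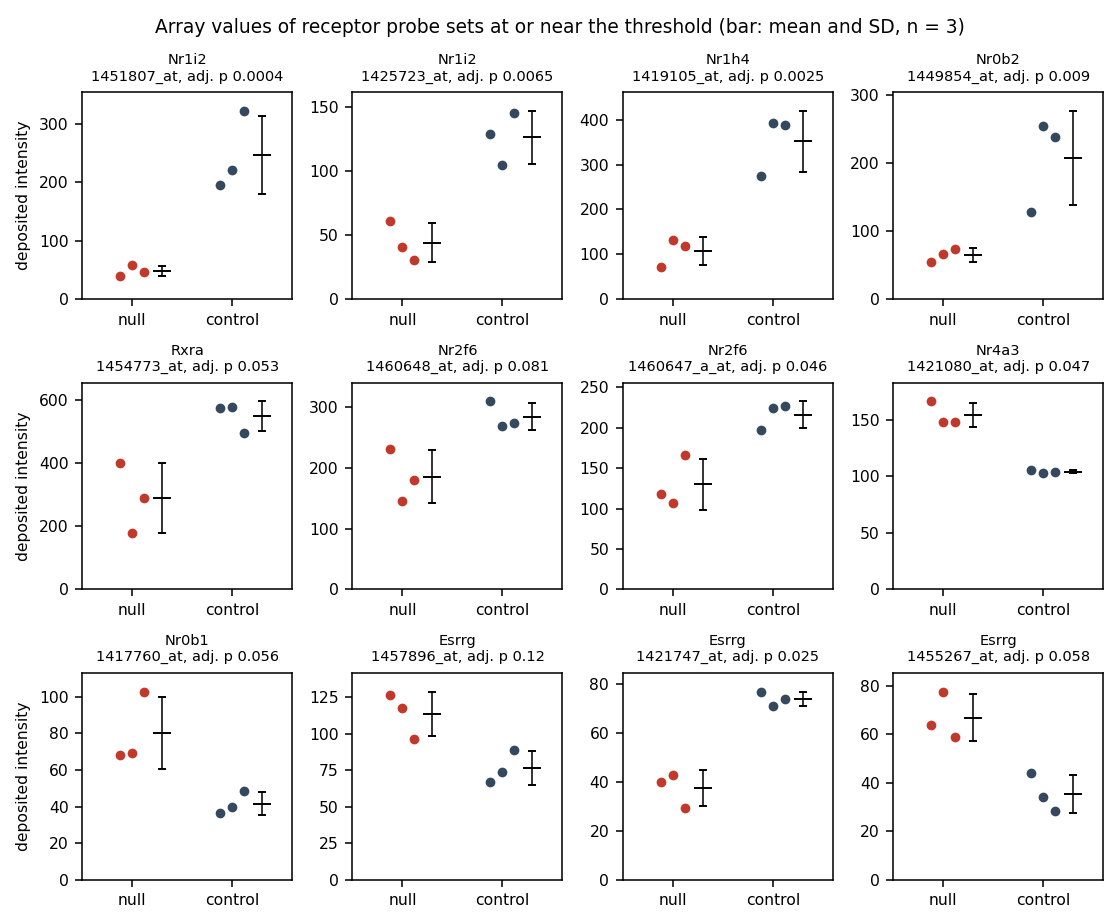
Deposited intensity of receptor probe sets at or near the threshold, each array as a point, with red null livers left and dark blue control livers right and bars for the mean and SD (n = 3). Nr1i2, Nr1h4 and Nr0b2 lie lower in all null livers, Nr4a3 lies higher at 148 to 166 against 103 to 106 in the control livers, and the 3 Esrrg probe sets differ in direction.

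Nr1h3 encodes LXR alpha, the oxysterol receptor that promotes cholesterol export and fatty acid synthesis. It read 242, 147 and 174 in the null livers, against 279, 229 and 245 in the control livers (log2 change -0.38, SE 0.17, adjusted p = 0.237), with Null_61 inside the control range. It was called lower only when Null_61 was left out. Of 13 LXR targets 7 were lower and 0 higher, with a median log2 change of -0.75, and the count was 4 without Control_1192. Apoe (log2 change -1.34, adjusted p = 3.5e-04), the cholesterol exporter Abca1 (log2 change -1.15, adjusted p = 4.7e-04) and the phospholipid-remodelling enzyme Lpcat3 (log2 change -0.96, adjusted p = 0.00255) had the smallest adjusted p values. Srebf1, which encodes the lipogenic factor SREBP-1, was not called (log2 change -0.39, adjusted p = 0.376).

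The retinoid X receptors are the shared partners of PPAR, LXR, FXR, PXR, CAR, thyroid hormone, vitamin D and retinoic acid receptors. The brightest probe set of Rxra, the main hepatic form, was 1454773_at and read 400.2, 179 and 289.7 in the null livers, against 575, 577 and 495 in the control livers (log2 change -0.91, SE 0.23, adjusted p = 0.0533). All null livers were below all controls in it, spread widely, and it missed the threshold narrowly. It was called without Null_61 (log2 change -1.15, adjusted p = 0.00534) and with the number run as a block (adjusted p = 0.00944). The other Rxra probe sets did not share this: 1425762_a_at read 273, 271 and 239.8 in the null livers, against 235, 253 and 284 in the control livers (log2 change 0.02, adjusted p = 0.94). Probe set 1430497_at of Rxra had a log2 change of 0.70, adjusted p = 0.404. The mean of the 3 gave -0.06 (adjusted p = 0.857).

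Rxrb (log2 change 0.20, adjusted p = 0.35) and Rxrg (log2 change 0.12, adjusted p = 0.573) were not called. Among the retinoic acid receptors, Rarg read 51.5, 83.8 and 86.2 in the null livers, against 89.6, 116 and 107 in the control livers in its brightest probe set (log2 change -0.37, adjusted p = 0.237), with all null livers lower and no call. Rara (log2 change -0.21, adjusted p = 0.484) and Rarb (log2 change 0.05, adjusted p = 0.875) were dim. Genes that respond to retinoids split, with 2 lower and 2 higher of 10 measured among 11 listed and a median log2 change of -0.01. The count lower was 1 without Control_1192. Lower were the retinal reductase Dhrs3 (log2 change -0.87, adjusted p = 0.00573) and the retinal dehydrogenase Aldh1a1 (log2 change -1.33, adjusted p = 0.0078). The log2 change of Aldh1a1 ran from -4.14 to -0.62 over 16 alternatives, of which 14 called it. Higher were Tgm2, tissue transglutaminase (log2 change 0.97, adjusted p = 3.8e-04), and Stra6, a membrane receptor for retinol-binding protein (log2 change 0.74, adjusted p = 0.0209). Cyp26a1, which degrades retinoic acid, was not called (log2 change 0.01, adjusted p = 0.986).

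The COUP-TF and testicular receptors bind direct repeats of AGGTCA and can compete with other receptors. Nr2f6, also called EAR2, was the one with lower signal: its 1460647_a_at read 118, 107 and 166 in the null livers, against 197, 224 and 227 in the control livers (log2 change -0.63, SE 0.16, adjusted p = 0.0463). Its brighter 1460648_at read 232, 145 and 180.3 in the null livers, against 309.7, 269 and 274 in the control livers (log2 change -0.56, SE 0.16, adjusted p = 0.0809). Both Nr2f6 probe sets separated the groups and had similar changes on either side of the threshold, and the call of 1460647_a_at was kept in 6 of 16 alternatives. Without Control_8, Control_1192, Control_1193, Null_1191 or Null_61 it was lost (adjusted p = 0.09, 0.169, 0.153, 0.156 and 0.0643). With the mean of both probe sets Nr2f6 had a log2 change of -0.59 (adjusted p = 0.0149). Nr2f2, which encodes COUP-TFII, a factor of venous endothelium and mesenchyme, had 6 probe sets between -0.12 and 0.19, none called. Its brightest read 179, 136 and 164 in the null livers, against 147, 169 and 152 in the control livers. Nr2f1 was dim (log2 change -0.16, adjusted p = 0.686).

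Nr2c1 and Nr2c2 encode the testicular receptors TR2 and TR4, which also repress embryonic globin genes in erythroid cells. Their 11 probe sets were not called. The one with an unadjusted p under 0.05 was 1449157_at of Nr2c1, which read 55.8, 54.7 and 54.4 in the null livers, against 79.9, 87.1 and 74.5 in the control livers (log2 change -0.37, SE 0.12, adjusted p = 0.106), with all null livers lower and a dim signal. The brightest of Nr2c2, 1454851_at, read 403, 366 and 367 in the null livers, against 420.4, 421 and 389 in the control livers (log2 change -0.11, adjusted p = 0.626).

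The NR4A receptors are products of immediate early genes and act without a known ligand. Nr4a3 (NOR1) had 1 of its 3 probe sets called higher: 1421080_at read 166, 148 and 148 in the null livers, against 106, 103 and 103 in the control livers (log2 change 0.45, SE 0.11, adjusted p = 0.0466). The groups stood apart with very little spread among the controls. The call was kept in 5 of 17 alternatives and was lost with any 1 array left out (adjusted p from 0.0619 without Null_61 to 0.161 without Control_1192). The other Nr4a3 probe sets, 1421079_at (log2 change -0.16, adjusted p = 0.797) and 1438796_at (log2 change 0.12, adjusted p = 0.77), were dim, and the mean of the 3 was not called. Nr4a2 (NURR1) read 2494, 1857 and 1819 in the null livers, against 1885, 1806 and 1697 in the control livers in its brightest probe set (log2 change 0.18, adjusted p = 0.491), and its 6 probe sets were not called. Of the others of Nr4a2 only 1450749_a_at, with means of 138 in the null and 110 in the control livers, was not dim. Nr4a1 (NUR77) was dim (log2 change -0.22, adjusted p = 0.614).

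The estrogen-related receptors are orphan receptors of mitochondrial and energy metabolism. In Esrrg, which is induced in liver by fasting, the probe sets disagreed. Its 1421747_at read 40.0, 42.9 and 29.1 in the null livers, against 76.8, 71.1 and 73.6 in the control livers (log2 change -0.62, SE 0.13, adjusted p = 0.025). The brightest, 1457896_at, read 126, 118 and 96.5 in the null livers, against 66.6, 73.9 and 88.9 in the control livers (log2 change 0.42, SE 0.14, adjusted p = 0.116). The last one, 1455267_at, read 63.7, 77.6 and 59 in the null livers, against 43.8, 34.1 and 28.1 in the control livers (log2 change 0.55, SE 0.14, adjusted p = 0.0578). In each of the 3 Esrrg probe sets the groups did not overlap, lower in the null livers in 1 and higher in the other two. The call of 1421747_at, a dim probe set, was kept in 8 of 15 alternatives and was lost without any 1 array other than Null_61 (adjusted p from 0.0519 to 0.0915). Esrra (log2 change -0.27, adjusted p = 0.356) was dim. Esrrb (log2 change -0.13, adjusted p = 0.743) overlapped between groups in its brightest probe set, 1441921_x_at. That probe set had means of 721 in the null and 771 in the control livers, while 1436926_at and 1422986_at of Esrrb were dim. Neither Esrra nor Esrrb was called.

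Receptors of the classical hormones were not called. The thyroid hormone receptor gene Thra read 233, 237 and 267 in the null livers, against 176, 216 and 209 in the control livers in its brightest probe set (log2 change 0.26, SE 0.12, adjusted p = 0.279), with all null livers higher. Thrb, the main hepatic form, read 99.7, 103 and 128 in the null livers, against 97.5, 115 and 109 in the control livers (log2 change 0.03, adjusted p = 0.925). Vdr, the vitamin D receptor, read 129, 111 and 113 in the null livers, against 139.6, 146 and 107 in the control livers (log2 change -0.11, adjusted p = 0.685). The estrogen receptors Esr1 (log2 change 0.06, adjusted p = 0.882) and Esr2 (log2 change 0.08, adjusted p = 0.73), the progesterone receptor Pgr (log2 change 0.10, adjusted p = 0.762) and the mineralocorticoid receptor Nr3c2 (log2 change -0.19, adjusted p = 0.717) were dim. Of 10 genes of the thyroid hormone response measured among 12 listed 3 were lower and 0 higher, with a median log2 change of -0.23. They were the gluconeogenic G6pc (log2 change -3.54, adjusted p = 4.4e-06) and Pck1 (log2 change -4.64, adjusted p = 1.0e-05), which many other factors also control, and Klf9 (log2 change -0.45, adjusted p = 0.0465). The log2 change of Pck1 ran from -8.84 to -2.33 over 17 alternatives, all of them called, so its size depends on the setting. The Klf9 call was kept in 7 of 17 alternatives and in 1 of the 6 fits with 1 array left out, where its adjusted p reached 0.181. Dio1, the hepatic deiodinase, was not called (log2 change -0.14, adjusted p = 0.624).

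Several genes that make, inactivate or carry receptor ligands were called. Of 10 measured among 14 listed 5 were lower and 1 higher, with a median log2 change of -0.32. Hsd17b2, which inactivates estradiol and testosterone, had the largest fall among them at this pseudocount (log2 change -4.36, SE 0.13, adjusted p = 4.7e-07). Hsd11b1, which regenerates active glucocorticoid, was lower (log2 change -2.47, adjusted p = 3.4e-06). So were the carriers Ttr (log2 change -0.45, adjusted p = 0.012) and Rbp4 (log2 change -0.70, adjusted p = 0.0196) and the steroid reductase Akr1d1 (log2 change -0.88, adjusted p = 0.0287). The higher gene was Serpina6, which encodes corticosteroid-binding globulin (log2 change 4.99, adjusted p = 4.6e-04). The count of lower genes was 2 without any 1 control array and 3 without Null_1191.

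The remaining members act mainly in the gonads, adrenals, brain or germ cells. Nr0b1, which encodes DAX1, a repressor without the usual DNA-binding domain and a relative of SHP, read 68.2, 69.6 and 103 in the null livers, against 36.4, 39.5 and 48.5 in the control livers (log2 change 0.60, SE 0.16, adjusted p = 0.0555). All null livers were above all controls in it, at dim signal. It was called without Null_61 (adjusted p = 0.0375) and with the number run as a block (adjusted p = 0.0231). Nr5a1, which encodes SF-1 (log2 change 0.09, adjusted p = 0.799), and the brain receptor Nr2e1 (log2 change 0.25, adjusted p = 0.43) were dim. Nr6a1, the germ cell nuclear factor, had 5 probe sets and no call, and its brightest read 463, 529 and 529 in the null livers, against 507, 505 and 519 in the control livers (log2 change -0.01, adjusted p = 0.967).

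Coactivators and corepressors of the receptors were mostly not called. Of 19 measured among 21 listed 1 was lower, the coactivator Ncoa2 (log2 change -0.61, adjusted p = 0.0265), and 1 was higher, the coactivator Ncoa3 (log2 change 0.78, adjusted p = 0.0152), with a median log2 change of -0.07. The count of lower cofactors was 0 without Null_1191 or any 1 control array and 2 without Null_1195. The Ncoa3 call was kept in 12 of 16 alternatives and in 3 of the 6 fits with 1 array left out, where its adjusted p reached 0.0664. Ppargc1a, which encodes the PPAR coactivator PGC-1 alpha (log2 change -0.07, adjusted p = 0.787), and the acetyltransferase gene Ep300 (log2 change -0.02, adjusted p = 0.934) were not called. Over the 9 lists, which hold 144 different genes, 127 were measured, 54 of them lower and 4 higher, beside the shares of all genes given above (7.85% and 1.56%). The lists share no gene with the receptors themselves, and no test of the lists against other genes was made. They were chosen with earlier results of these data known, so the contrast with all genes may depend on that choice.

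**Figure D4:**
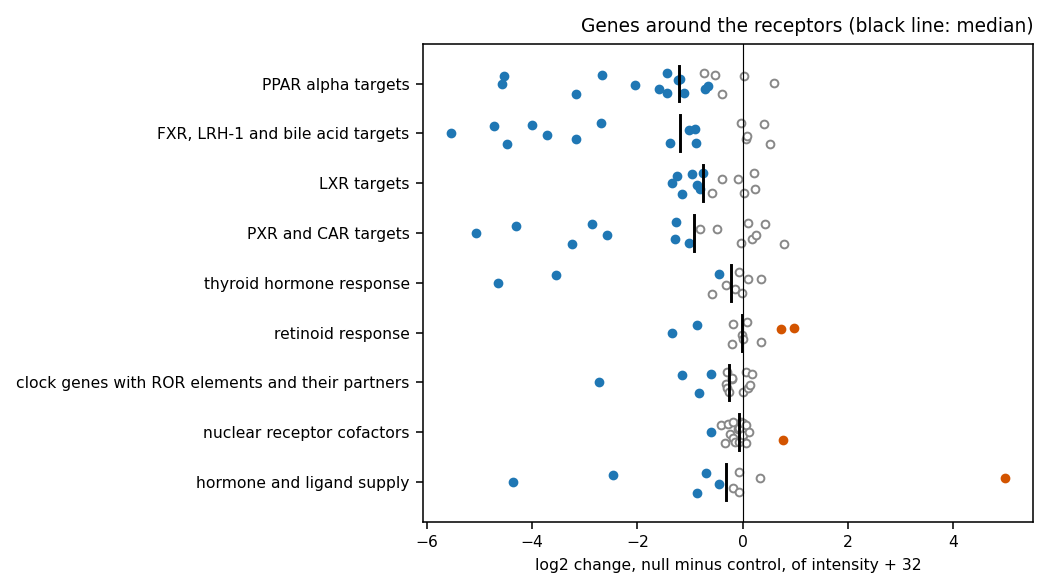
Log2 change (null minus control) of each measured gene in the 9 lists, 1 row per list, with a black line at the median. Filled blue points are called lower, filled orange points higher and open points not called; the medians of the PPAR alpha and bile acid lists lie at -1.21 and -1.20, those of the retinoid and cofactor lists at -0.01 and -0.07, and the highest point is Serpina6.

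The calls differed in how much they depended on single arrays. The called probe sets of Ppara and Rora and those of Nr1i2 and Nr1h4 kept an adjusted p under 0.05 whichever array was left out, with the highest value at 0.0378 for Ppara 1449051_at. Those of Nr2f6, Esrrg and Nr4a3 did not. All 12 called receptor probe sets had the same sign in the pair of Null_61 and Control_8 as in the later run. The groups do not overlap in any of these probe sets, which fixes that sign, so this is no separate check. Among the receptors, 30 probe sets (29.4%) were lowest of their group in both arrays of the earlier run, beside 23.7% of all probe sets. Highest of their group in both were 16 receptor probe sets (15.7%), beside 14.5% of all.

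**Figure D5:**
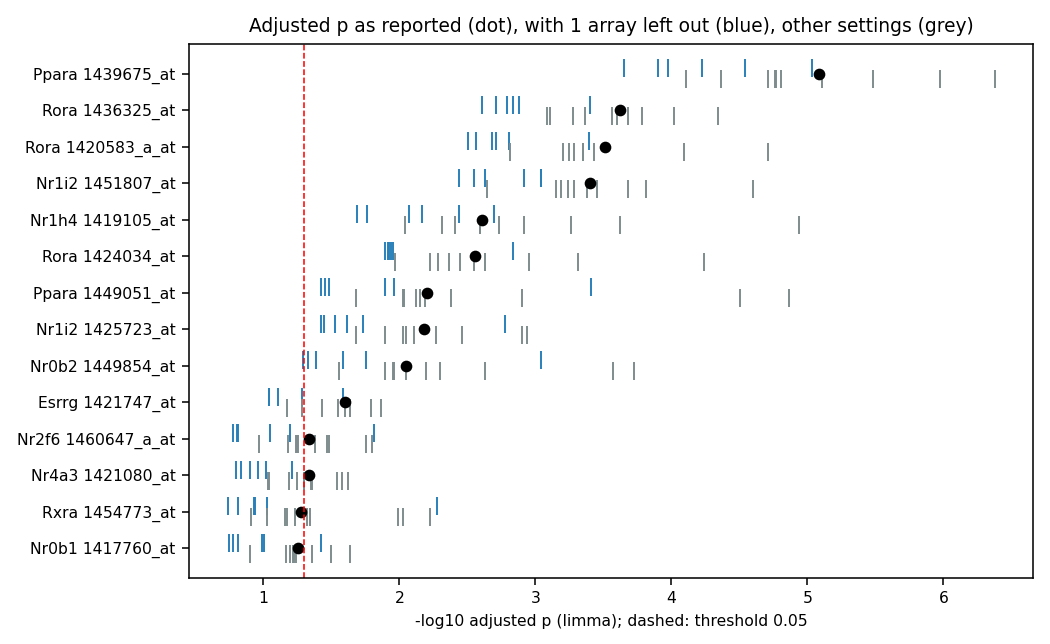
Adjusted p from limma on a -log10 scale for 14 receptor probe sets, 1 row each. Black dots are the values reported, blue ticks have 1 array left out, and the dashed line is the threshold of 0.05. Grey ticks are the other settings, without the mean of probe sets. The upper 8 rows lie right of the dashed line throughout and Nr0b2 crosses it in 1 setting.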

How the data were processed

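Biotin-labelled total RNA was run on Affymetrix arrays following the maker's procedure, per the labels' protocols. The values the authors deposited are linear intensities, 1 for each probe set, with between 0.908% and 1.34% of each array below 0. The sources used here do not give their summarisation, background step and scaling. Negative values were replaced by 0, and log2 was taken after adding 32. Array medians on that scale lay within 0.0877 of each other, under a tolerance of 0.2, so the deposited scaling was kept. The 45037 probe sets left after 64 control probe sets were fitted with limma 3.58.1 in R 4.3.3 (lmFit, eBayes with an intensity trend, 6 arrays, no covariate, two-sided). The platform annotation gave 1 symbol to 34945 of them (18193 genes), several to 932 and none to 9160. An exact permutation test of 3 against 3 arrays cannot go below 0.1, so none is given. The number of arrays limits the precision.

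On simulated data for this comparison (45037 probe sets, 200 changed) 94% of log2 changes of 1 and 99% of 2 were recovered, with 18 false calls. The simulated noise was normal, with the spread that the limma fit gave each probe set. Fewer probe sets were changed than were called in the data (2171 lower and 496 higher among those with 1 gene symbol). The changed probe sets all lay above the median control level. The recovered shares therefore do not apply to dimmer probe sets. Members, lists, alternatives and the naming rule were chosen with earlier results of these data known. The rule names each member with a called probe set, members with an unadjusted p under 0.05, the 3 members not called with the largest change, and up to 3 called genes per list; list genes outside it were chosen after their values were seen. Alternatives were quantile normalization, centred medians, pseudocounts of 1 and 100, a filter for probe sets brighter than the median, array weights, a fit without the intensity trend, the mean of a gene's probe sets, the number run as a block or its later part alone, embryo sex as a term, each array left out and, added after seeing the data, any probe set called. Promoter sequences are from RefSeq (GRCm38.p6); a planned search of protein domains was not run.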

Additional observations from a re-analysis of the deposited data

How the results depend on the processing

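Of 872 refits of the named genes and probe sets under other settings, 760 kept direction and side of the threshold, 79 lost a call, 32 gained one and 1 changed sign. Directions are as reported except for Rora by its brightest probe set, where the mean of its 9 probe sets turned the log2 change to -0.5501 (adjusted p = 0.0143), because more probe sets then enter the gene's value. Members lower in the null livers numbered 3, and 5 with array weights, the number run as a block or the later run alone (Nr2f6 and Rxra were added in each), 6 with the mean of probe sets (Nr2f6, Ppara and Rora added) and 7 with any probe set called. Members higher numbered 1, and 2 with array weights, 3 with the run block, and 0 with embryo sex as a term, no intensity trend or a pseudocount of 1. The count was 1 but the gene another with centred medians or the mean of probe sets (Nr0b1) and in the later run (Rora), where Nr4a3 had an adjusted p of 0.065, 0.638 and 0.0915. Receptor probe sets higher numbered 1, and 3, 4 and 2 with array weights, the run block and the later run, and 0 with the same 3 settings. The median of the members was -0.0809, and -0.0336 in the later run and 0.0204 with quantile normalization, so its sign is not settled. With the filter on dim probe sets, PXR and CAR targets lower numbered 5 in place of 8, retinoid genes lower 1 in place of 2, and list genes higher 2 in place of 4. Retinoid genes lower also numbered 1 with a pseudocount of 1, ligand supply genes lower 3 with quantile normalization in place of 5, and cofactors lower 0 with embryo sex as a term or the mean of probe sets in place of 1. With 1 array left out, members lower ranged from 2 to 6 and higher from 0 to 2, and receptor probe sets lower from 8 to 13 and higher from 0 to 3. Without Null_61 the count of 6 added Nr1h3, Nr2f6 and Rxra, and Rora and Nr0b1 were the 2 higher. Without any of the other arrays no member was higher. The median ranged from -0.1095 to -0.0219 (-0.0219 without Control_8). The ranges were 12 to 14 for PPAR alpha targets, 9 to 11 for FXR and LRH-1 targets, 4 to 6 for LXR targets, 6 to 8 for PXR and CAR targets, 2 to 3 for thyroid genes, 1 to 2 for retinoid genes (1 without Control_1192), 1 to 4 for clock genes, 0 to 2 for cofactors (0 without Control_8, Control_1192, Control_1193 or Null_1191 and 2 without Null_1195), 2 to 5 for ligand supply and 2 to 5 for list genes higher (2 without Control_8 or Control_1192). The cause of these shifts was not tested. No scaling moved the median of all probe sets by more than 0.1. No paired analysis was possible because null and control livers share no number in their titles. Dim signal limits 52 of the 102 receptor probe sets.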
